A study of Mus musculus with 2 samples.

Results

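The genes of Polycomb repressive complex 2 (PRC2) were examined in ATAC-seq peak lists of mouse enteroids with and without Taf4, the TFIID subunit under study. The members were the 9 subunit genes Ezh2, Ezh1, Suz12, Eed, Rbbp4, Jarid2, Aebp2, Mtf2 and Phf19, chosen by name out of 22367 protein-coding genes of the annotation. For each, every peak within 1 kb of any annotated start site was taken as a promoter peak, and every other peak in the gene body or within 10 kb of it as a distal peak. All 9 genes were found, with 24 peaks out of 90445 in the control list and 23 out of 71282 in the Taf4-inactivated list.

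PRC2 places methyl groups on lysine 27 of histone H3 (H3K27), a mark of silenced genes. Ezh2 or Ezh1 is the enzyme, Suz12 and Eed are needed for its activity, and Rbbp4 is a histone-binding subunit. Jarid2 and Aebp2, or a Polycomb-like protein such as Mtf2 or Phf19, join this core and help to bring it to chromatin, often at CpG islands. In the gut, PRC2 is known to be needed for the proliferation of crypt cells.

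Enteroids are epithelial structures grown from intestinal crypts, and ATAC-seq marks open chromatin by the insertion of a transposase. Control enteroids (labelled WT) carried Taf4lox/lox without a Cre gene, and Taf4-inactivated enteroids (labelled KO) carried Taf4lox/lox::VilCreERT2, in which the villin promoter, active in intestinal epithelium, drives an inducible Cre. Both came from ileal crypts of C57Bl6/129sv mice aged 4 months and both were treated with 1 µM 4-hydroxytamoxifen for 3 days, so the groups shared the floxed alleles and the drug but not the Cre. There was 1 library per genotype, so genotype, Cre and library cannot be told apart, and no value below carries a replicate error or a test between genotypes.

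Read counts per library were not used here, and depth was inferred from the peak values: the lowest background was 12.8 reads in control and 7.68 in the inactivated library, a depth ratio of 1.67. The median fold enrichment was 2.03 in control and 2.45 after inactivation. Fold enrichment is the mean signal of a peak over the local background of its own library, and since it was not on one scale between the lists, each peak was given its percentile within its list, where 100 is the highest fold. Of 8 intestinal epithelial markers, 7 had a promoter peak in control and 8 after inactivation, with median percentiles of 90.5 and 76.3. Of 8 markers of blood, endothelial, stromal, neural and myeloid cells, 5 and 4 had one, with medians of 52.7 and 29.7, while Ptprc, Cd3e and Acta2 had none in either list. Ncam1 stood at 75.5 and 68.6, Itgam at 59.3 and 29.4, Col1a2 at 52.7 and 30, and Col1a1 at 10.7 and 18.1. Pecam1 stood at 21.8 in control alone. Among the epithelial markers, Cdx1 was low, at 9.74 and 0.679. The medians cover only markers with a peak. Over all coding genes, 68.4% and 65.6% had a promoter peak. The part of other cells in the values below was not tested. The targeted gene Taf4a had promoter peaks at percentiles 74.7 and 58.7, which do not report whether its floxed exons were present.

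The promoters of the members were CpG-rich in 9 of 9 cases, against 43.3% of 22362 protein-coding promoters. These windows, 250 bases before to 50 bases after the main start site, had a GC content of 54.7% to 79.0%, against a median of 55.7% over all coding promoters. CpG-rich here means GC over 50% with a ratio of observed to expected CpG over 0.6. Windows were read from the mm9 genome, and 4 are shown in transcript orientation: both enzyme genes, because they substitute for each other in the complex, and the members with the largest rank difference in either direction, Mtf2 and Jarid2. Capitals mark matches on either strand to 6 motifs. NF-Y was searched as the word CCAAT and the TATA box as the word TATAAA. The word for SP factors was GGGCGG and that for ETS factors was CCGGAAG. E2F was searched as TTTCCCGC, as TTTGGCGC and as TTTCGCGC, and NRF1 was searched as GCATGCGC.
Ezh2, chr6:47544980-47545279, minus strand: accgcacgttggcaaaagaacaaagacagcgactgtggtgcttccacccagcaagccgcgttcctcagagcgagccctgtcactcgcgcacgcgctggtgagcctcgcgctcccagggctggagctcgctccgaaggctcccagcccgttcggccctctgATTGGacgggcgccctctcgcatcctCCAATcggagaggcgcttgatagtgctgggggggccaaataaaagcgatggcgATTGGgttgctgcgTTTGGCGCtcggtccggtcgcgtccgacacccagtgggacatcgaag
Ezh1, chr11:101087715-101088014, minus strand: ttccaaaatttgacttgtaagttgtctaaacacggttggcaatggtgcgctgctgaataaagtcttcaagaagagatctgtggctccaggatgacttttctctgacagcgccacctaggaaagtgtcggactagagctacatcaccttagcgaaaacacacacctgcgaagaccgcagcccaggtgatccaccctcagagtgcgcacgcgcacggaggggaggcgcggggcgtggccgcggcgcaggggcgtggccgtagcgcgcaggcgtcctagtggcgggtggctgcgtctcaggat
Mtf2, chr5:108494511-108494810, plus strand: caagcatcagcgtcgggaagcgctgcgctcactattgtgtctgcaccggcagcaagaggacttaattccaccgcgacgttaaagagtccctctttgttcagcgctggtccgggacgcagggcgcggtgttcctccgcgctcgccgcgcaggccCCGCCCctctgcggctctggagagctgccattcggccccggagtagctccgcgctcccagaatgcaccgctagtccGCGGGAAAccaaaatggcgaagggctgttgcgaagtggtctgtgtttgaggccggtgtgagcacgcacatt
Jarid2, chr13:44826390-44826689, plus strand: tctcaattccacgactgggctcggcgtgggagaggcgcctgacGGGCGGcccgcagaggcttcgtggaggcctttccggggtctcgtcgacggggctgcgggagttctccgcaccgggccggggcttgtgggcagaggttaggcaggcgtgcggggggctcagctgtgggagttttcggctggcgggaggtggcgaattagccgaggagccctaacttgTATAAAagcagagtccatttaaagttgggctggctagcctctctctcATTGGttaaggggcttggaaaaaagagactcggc

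The Ezh2 window held 3 CCAAT words, whose first bases lay at −90, −64 and −11 from the start, and an E2F word starting at +4. The Ezh1 window held none of the 6 motifs. The Mtf2 window held an E2F word at −21 and an SP word at −97. The Jarid2 window held TATAAA at −31, the distance at which a TATA box is usually found, and was the 1 window of 9 with that word (13.5% of all coding promoters and 4.5% of the 9683 CpG-rich ones). An E2F word was present in 4 of 9 windows, those of Ezh2, Suz12, Mtf2 and Phf19, against 2.36% of all coding promoters and 4.2% of the CpG-rich ones. The Phf19 window lay at its upstream main start, where the peak was weak (percentiles 59.2 and 13.7). Its stronger peak, 9069 bp downstream, was not searched for motifs or CpG content. E2F factors control genes of the cell cycle. CCAAT was present in 5 of 9 windows, against 37.5% of all coding promoters and 36% of the CpG-rich ones. GGGCGG was present in 6 of 9, against 44.7% of all and 77.3% of the CpG-rich ones. The ETS word was in 0 of 9 (10.9% of all and 19.6% of the CpG-rich ones), as was the NRF1 word (3.32% and 6.17%). A match is a run of letters and not a shown binding site.

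All 9 genes had a promoter peak in both lists, where 68.4% of coding genes had one in control, 65.6% after inactivation and 62.7% in both. The peaks stood high in their lists: 8 of 9 members were in the top 10% by fold in control and 7 of 9 after inactivation, against 28.5% and 21% of coding genes. Those shares cover all 22367 coding genes, with or without a promoter peak. In control 15290 had a peak and 6384 were in the top 10%, and after inactivation these numbers were 14662 and 4703. The members' counts depended on the ranking value, on the peaks kept and on the start sites used. With start sites of protein-coding transcripts alone they were 7 in control and 6 after inactivation. They were 9 in either list when ranked by −log10 p and 3 in either list by width. With a −log10 q of at least 2 they were 5 in control and 6 after inactivation, and with one of at least 5 they were 2 in either list. The members' median percentile was 95.3 in control and 94.6 after inactivation, against 88.2 and 82.6 over the 14014 coding genes with a peak in both lists. None of the 9 differed by 20 percentile points or more between the lists, lower or higher, where 12.3% of coding genes were lower and 7.85% higher by that much. The members' control percentiles of 89 to 99.4 left no room for a rise of 20 points. The absence of such a rise therefore says nothing about these genes. With a −log10 q of at least 5, 4 of 9 were higher by that much (Mtf2, Ezh1, Phf19 and Aebp2), and with start sites of protein-coding transcripts alone 1 of 9 was lower (Phf19). That q minimum left 10757 control and 20474 inactivated peaks. No coding-gene values were at hand for any of the changed settings given here, so these counts cannot be called particular to the members. A lower percentile after inactivation was seen in 7 of 9 members, against 65.8% of coding genes, and the median difference of −2.92 points lay beside −2.77 over coding genes. The median difference turned to 5.11 when peaks with a −log10 q under 5 were left out and to 1.43 when peaks were ranked by width.

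**Figure D1:**
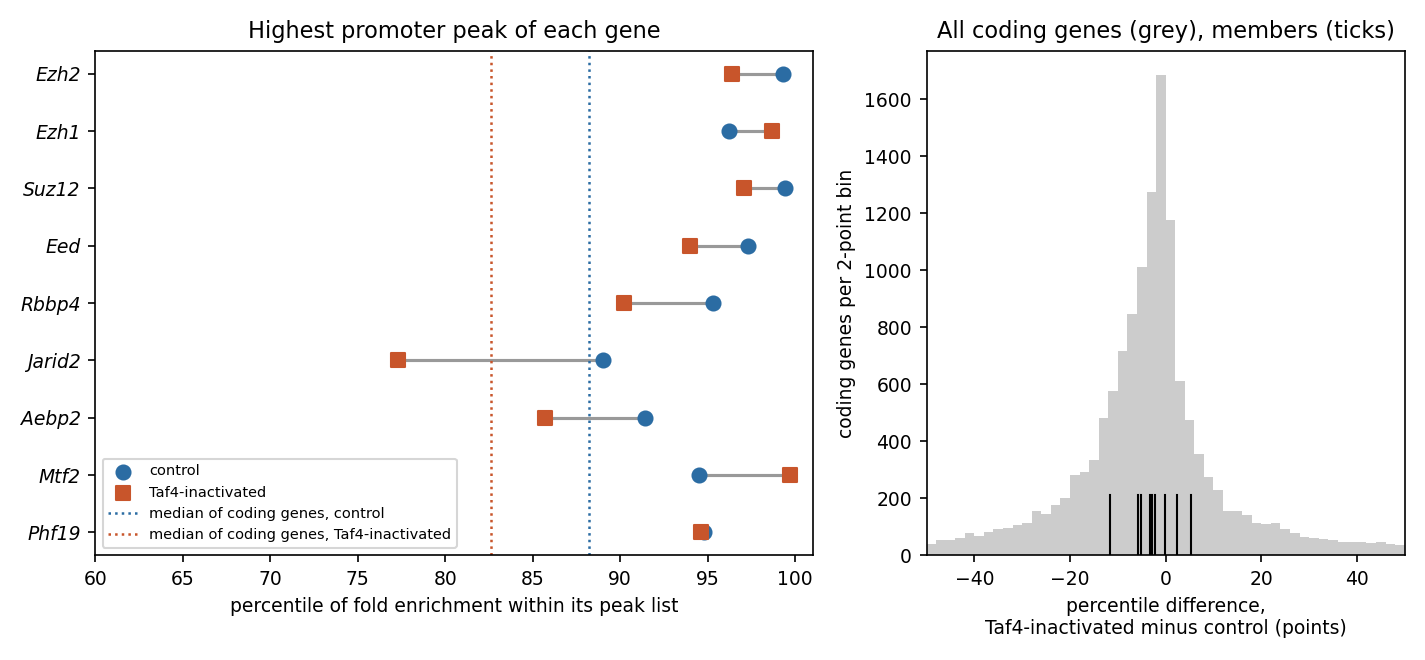
The left panel plots, for each gene, the percentile of fold enrichment of its highest promoter peak within the control list (circles) and the Taf4-inactivated list (squares), with dotted lines at the medians of coding genes (88.2 and 82.6); the axis starts at 60. The right panel is a histogram of the percentile difference (Taf4-inactivated minus control) over coding genes, cut at 50 points on either side, with the 9 members as ticks between −11.7 and 5.22.

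The gene of the main enzyme, Ezh2 (ENSMUSG00000029687.9, minus strand of chromosome 6), had a control peak at chr6:47544175-47545715, 1541 bp wide with a fold enrichment of 3.61 and a −log10 q of 12.4. After inactivation it spanned chr6:47544135-47545604, 1470 bp, with a fold of 4.35 and a −log10 q of 14.1. The 2 peaks overlapped by 1430 bp and covered the main start site, and the percentile was 99.3 in control and 96.4 after inactivation. The other 6 groups of annotated Ezh2 start sites, between 17020 and 59905 bp downstream, had no peak in either list.

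The gene of the alternative enzyme, Ezh1 (ENSMUSG00000006920.8), differed in the other direction. Its peak was at chr11:101087254-101088011 in control, 758 bp wide with a fold of 3.02, and at chr11:101087435-101088069 after inactivation, 635 bp wide with a fold of 4.88. The percentile was 96.2 in control and 98.7 after inactivation, 2.40 points higher. The ratio of the folds, 1.62, lay at percentile 93.3 of the same ratio over coding genes, whose median was 1.27. The Ezh2 ratio, 1.21, lay at percentile 35.9, so the enzyme genes stood on either side of the median promoter. Ranked by width in place of fold, the differences were −4.27 for Ezh1 and 1.43 for Ezh2, so both directions turned round.

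Among the other core subunits, Suz12, which holds the complex together, had the highest control percentile of the members. It was 99.4 (fold 3.68) in control and 97.1 (fold 4.48) after inactivation, with 1273 bp of overlap. Eed, the subunit that reads the mark and stimulates the enzyme, stood at 97.3 (fold 3.15) and 94.0 (fold 4.05). Rbbp4, which also serves in other chromatin complexes, stood at 95.3 (fold 2.92) and 90.2 (fold 3.70). Its peak also lay within 1 kb of the start of the neighbouring gene Zbtb8os, transcribed away from it, so the signal of the pair could not be divided. Such a divergent coding partner was found for 1 of 9 members and 10.7% of coding genes.

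The accessory subunits spread more widely than the core. Jarid2, a cofactor of the complex related to histone demethylases, had a control peak at chr13:44824976-44826748 with a fold of 2.53 and percentile 89.0, the lowest of the members in control. After inactivation the peak at chr13:44825422-44826747 had a fold of 3.04 and percentile 77.3. The difference of −11.7 points was the largest among the members, but 22.9% of coding genes had one at least as low, and the fold ratio of 1.2 lay at percentile 35. The peak was 1773 bp wide in control and 1326 bp after inactivation, and its upstream edge lay at −1664 and −1218 bp from the main start while the downstream edge hardly differed. The next start site of Jarid2, 2769 bp downstream, had percentiles of 85.0 and 70.0. With a −log10 q of at least 5, the difference of the Jarid2 promoter turned to 3.6 points. A further group of starts, 109420 bp downstream, had no control peak and a peak at percentile 18.4 after inactivation.

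Mtf2, a Polycomb-like protein that binds CpG-rich DNA, was at the opposite end. Its control peak at chr5:108494414-108495087 had a fold of 2.84, a −log10 q of 6.12 and percentile 94.5. After inactivation the peak at chr5:108494440-108495072 had a fold of 5.59, a −log10 q of 22.2 and percentile 99.7. The fold ratio of 1.97 was higher than that of nearly all coding genes (percentile 99.6), although the width differed by only 41 bp (674 and 633 bp). The difference of 5.22 points was limited by the top of the scale. Among the promoter peaks of coding genes alone, Mtf2 stood at 79.4 in control and 99.3 after inactivation. It was higher after inactivation in the main ranking and under all 9 alternative settings, with differences from 1.36 (by width) to 45.4 points (−log10 q of at least 5). The changed start site distances, start site type and pairing gave the same 5.22 points, so they add nothing to the main ranking.

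Aebp2, a zinc-finger cofactor, had the widest promoter peak of the members, 1913 bp in control and 1916 bp after inactivation. Its percentiles were 91.4 (fold 2.64) and 85.7 (fold 3.41). Phf19, another Polycomb-like protein, had peaks at both of its start groups. The upstream start had a weak peak at percentile 59.2 in control (fold 2.09) and 13.7 after inactivation (fold 2.13), within 1 kb of the start of Gm13448 as well. The start group 9069 bp downstream had the stronger peak, at percentile 94.8 in control (fold 2.87) and 94.6 after inactivation (fold 4.12). Where start sites of protein-coding transcripts alone were used, the upstream peak represented Phf19 and the difference was −45.5 points in place of −0.164. The sign of the small difference of the downstream peak depended on the setting: it was 2.19 with a −log10 q of at least 2 and 0.514 when ranked by −log10 p.

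**Figure D2:**
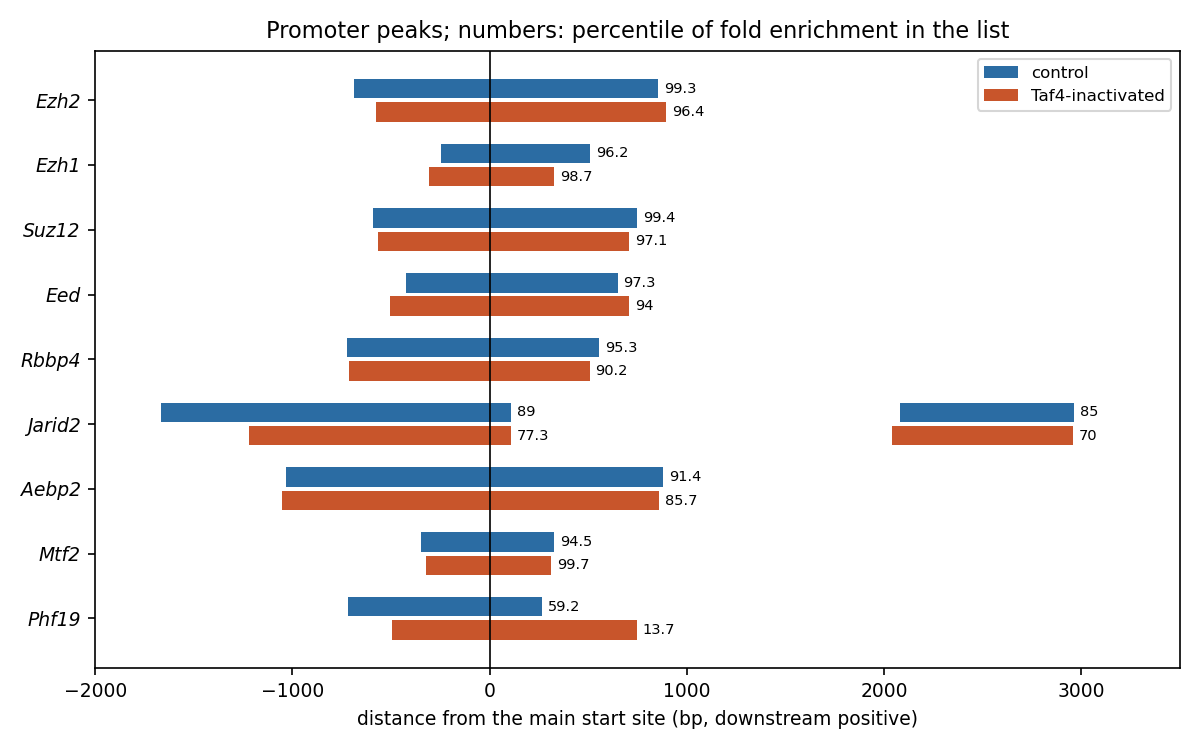
Extent of each promoter peak around the main start site (0 bp, downstream positive) in the control list (upper bar) and the Taf4-inactivated list (lower bar), labelled with its percentile of fold. Peaks of Jarid2 and Phf19 at their far downstream starts are outside the plot. Mtf2 and Ezh1 have the narrowest bars around the main start and higher numbers in the lower bar.

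The rank differences went along with peak width. Mtf2 and Ezh1, the only members whose percentile was higher after inactivation, had the narrowest promoter peaks in control (674 and 758 bp). Among 6294 coding genes whose control percentile lay in the range of the members (89 to 99.4), 78.4% were lower after inactivation, with a median difference of −3.57. Of those with a control peak of at most 800 bp, 66.5% of 1470 were lower (median −1.89), and of the wider ones 82.0% of 4824 (median −4.01). The members' 7 of 9 lay close to the 78.4% of promoters of like rank. The part of width in the values of Mtf2 and Ezh1 was not tested.

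**Figure D3:**
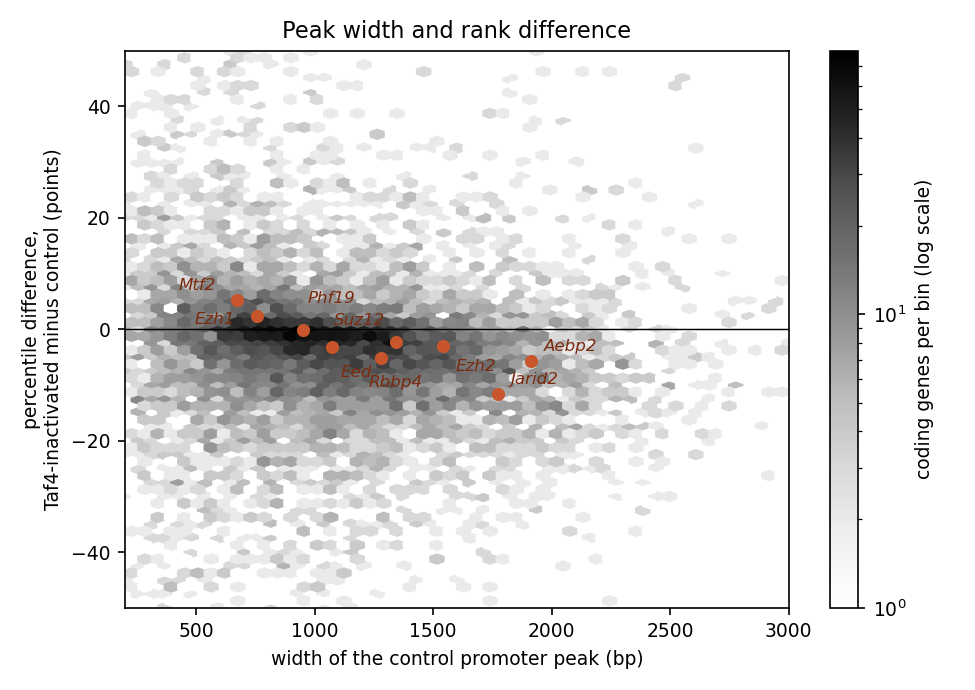
Percentile difference of the highest promoter peak (Taf4-inactivated minus control, points) against the width of the control peak (bp). Grey shading gives the number of coding genes per bin on a log scale, and the 9 labelled points are the members, running from 5.22 at 674 bp (Mtf2) to −11.7 at 1773 bp (Jarid2); genes outside the axes are not drawn.

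Of 6 other genes of the pathway, 5 had a promoter peak in control and 6 after inactivation, against 68.4% and 65.6% of coding genes. The 5 with a peak in both lists were all lower after inactivation, as were 65.8% of coding genes with a peak in both. They included Kdm6a, an H3K27 demethylase, at 98.0 and 88.4, and the subunit genes Rbbp7 (93.3 and 87.8), Phf1 (86.2 and 74.6) and Lcor (93.8 and 88.2). E130012A19Rik (Epop), whose product is an accessory subunit, was at 69.7 in control and 39.4 after inactivation, the 1 gene of these with a difference of over 20 points. Of coding genes with a peak in both lists, 12.3% were lower by 20 points or more. The fold ratio of E130012A19Rik, 1.07, lay at percentile 11.5 over coding genes. Kdm6b, the second demethylase, had no control peak and a 215 bp peak at percentile 3.88 after inactivation that did not cover its main start.

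Away from their own promoters, the members held fewer peaks per 100 kb than coding genes together. There were 13 distal peaks in control and 11 after inactivation, a density of 1.89 and 1.6 per 100 kb, against 4.37 and 3.42 over coding genes. Peaks at start sites of other genes counted as distal in all these values. Among the members they were 0 of 13 and 1 of 11, and their number over coding genes was not at hand. Eed and Mtf2 had no distal peak in either list. Among coding genes with a promoter peak and a region within 10% of that of Eed, 11.9% had none in control and 15.7% after inactivation, and for Mtf2 these shares were 11.5% and 14.0%. Ezh2 had none in control, as did 12.4% of coding genes of like length, and 1 after inactivation that lay at the start of the neighbour Cul1 (percentile 17.5). For each of the 9 genes in control, the number was below the median of genes of like length. Many such genes had as few or fewer: 46.8% for Phf19, 43.7% for Ezh1, 40.9% for Jarid2 and 40.6% for Aebp2. For Rbbp4 the share was 29.4% and for Suz12 24.8%. After inactivation, Ezh1 with 3 was above its median of 2, and Suz12 with 2 equalled it.

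**Figure D4:**
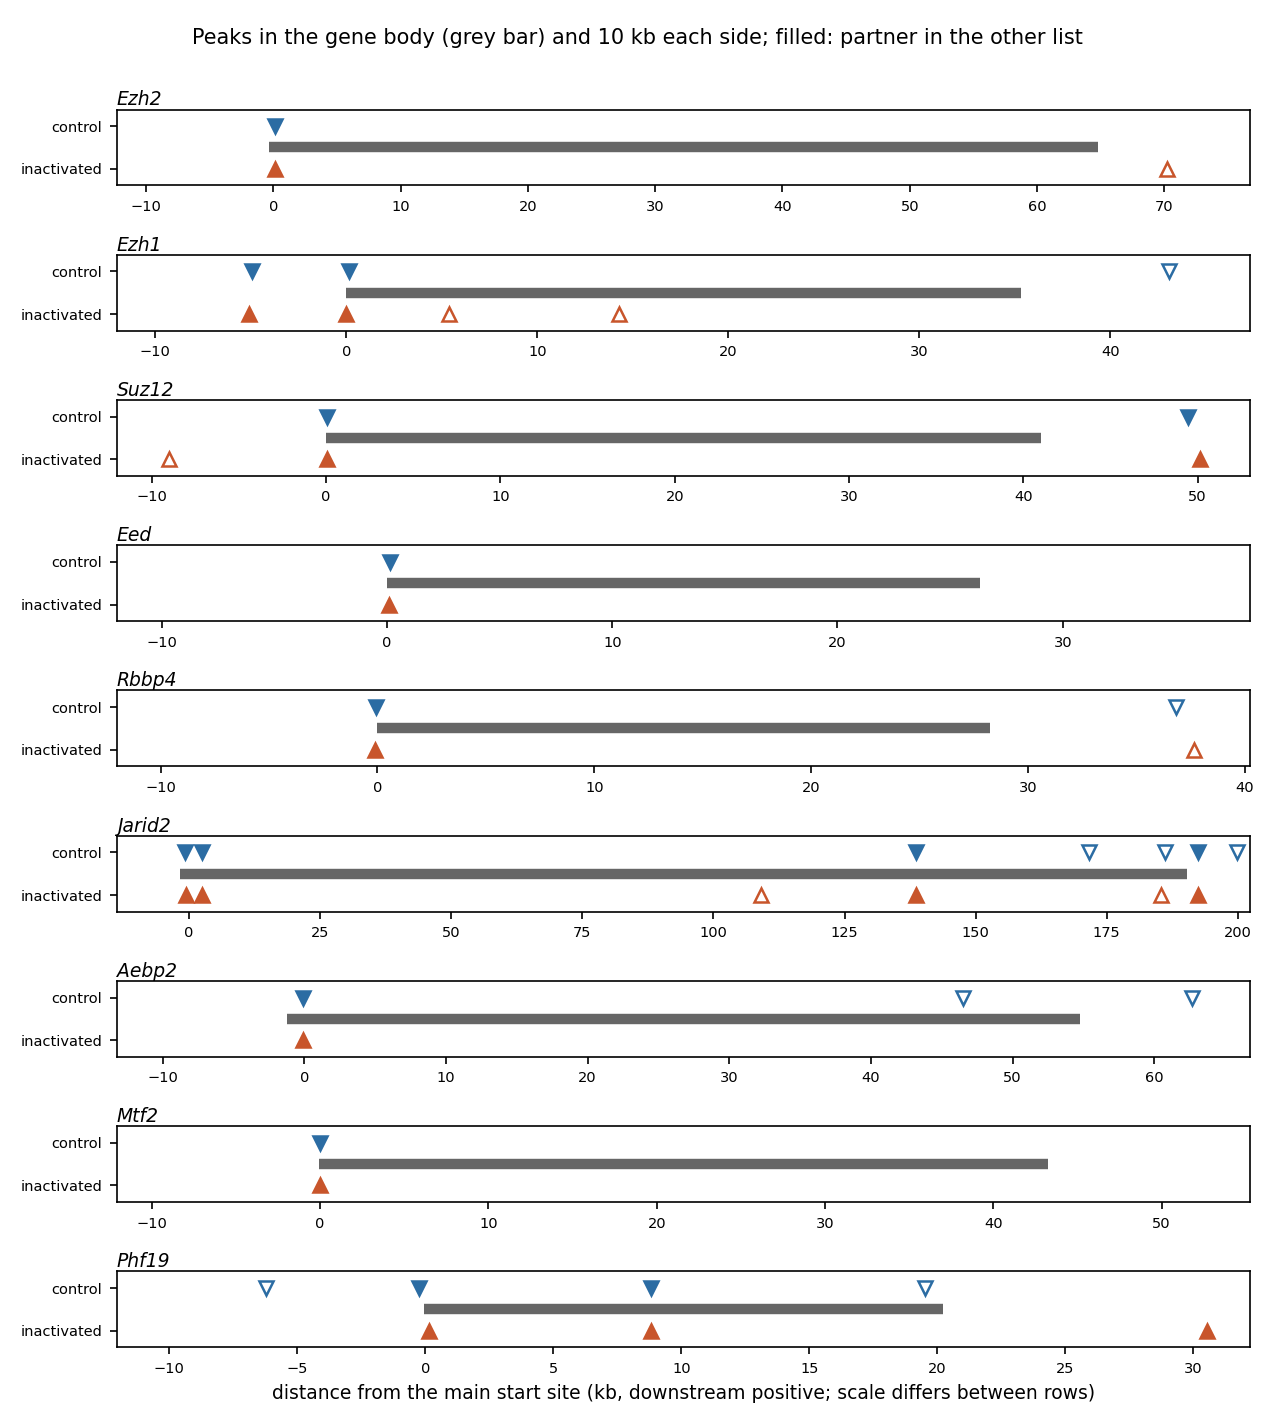
Each row is a gene, drawn from its main start site (0 kb) in the direction of transcription, with the gene body as a grey bar and peaks as triangles at their middles, control above and Taf4-inactivated below. Filled triangles have an overlapping peak in the other list, and the scale differs between rows. Eed and Mtf2 show their promoter peak alone, and Jarid2 has the most peaks.

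Many distal peaks appeared in one list alone. In control, 9 of 13 (69.2%, exact binomial 95% interval 38.6 to 90.9, counting error only) had no overlapping peak in the other list, against 55.4% of distal peaks of coding genes. After inactivation it was 6 of 11 (54.5%, interval 23.4 to 83.3), against 42.4%. Both intervals held the background share, which also covered peaks at the start sites of neighbouring genes. With 25 kb each side in place of 10 kb, the shares were 46.4% (13 of 28) and 44.4% (12 of 27). With a gap of up to 500 bp allowed they were 53.8% (7 of 13) and 36.4% (4 of 11). Gene bodies alone gave 80% (4 of 5) and 75% (3 of 4). A required overlap of 50% of both peaks gave 84.6% (11 of 13) and 72.7% (8 of 11). The background shares above were for 10 kb and any overlap, and none were at hand for these settings. The inactivated library was estimated at 60% of the depth of control, and the part of depth in these shares was not tested.

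The highest peaks without a partner differed between the lists in the genes they lay near. In control they were a peak 62.7 kb downstream of the start of Aebp2, beyond the gene's end, at percentile 87.4 and fold 2.47, a peak 200 kb from the start of Jarid2 at 73.1, within the neighbour Dtnbp1, and a peak in exon 7 of Jarid2 at 54.9. After inactivation they were a peak upstream of Suz12, at −9.01 kb from its start, at percentile 86.7 and fold 3.47, and peaks in intron 6 and intron 1 of Ezh1 at 81.0 and 71.7. Aebp2 had 2 distal peaks in control and 0 after inactivation. The first of each list is shown, as 300 bases at the middle of the peak on the plus strand of mm9, with capitals for matches on either strand. AP-1 was searched as TGACTCA, which read on the other strand is the second AP-1 form. The GATA factors were searched by the word AGATAA, and for HNF4 the word searched was CAAAGTCCA.
Aebp2, control, chr6:140634736-140635035: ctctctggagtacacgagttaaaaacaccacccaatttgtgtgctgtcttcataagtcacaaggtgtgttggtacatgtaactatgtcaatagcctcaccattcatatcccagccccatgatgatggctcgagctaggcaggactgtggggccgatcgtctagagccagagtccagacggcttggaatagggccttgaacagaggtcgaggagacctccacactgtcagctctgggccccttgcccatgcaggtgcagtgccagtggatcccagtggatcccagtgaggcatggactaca
Suz12, Taf4-inactivated, chr11:79797454-79797753: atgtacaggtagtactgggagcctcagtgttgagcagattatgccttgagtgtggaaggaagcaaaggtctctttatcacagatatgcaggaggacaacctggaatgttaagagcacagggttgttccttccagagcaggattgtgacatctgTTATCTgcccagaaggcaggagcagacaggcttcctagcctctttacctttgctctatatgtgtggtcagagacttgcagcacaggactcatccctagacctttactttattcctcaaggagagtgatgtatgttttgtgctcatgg

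The Suz12 window held 1 GATA word on the minus strand and was the 1 window of 11 with that word after inactivation, against 13.2% of distal peaks of coding genes. In control 0 of 13 held it, against 10.4%. AP-1 words were in 2 of 13 and 2 of 11 windows (7.20% and 9.90% of distal peaks), and the HNF4 word in 0 of 13 and 0 of 11 (0.776% and 1.56%).

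Among pairs of overlapping distal peaks, that upstream of Ezh1, at −4.94 kb from its start, differed most, with percentile 71.3 (867 bp wide) in control and 21.1 (315 bp) after inactivation. The fold was 2.19 in both lists. A pair downstream of Suz12 stood at 52.8 in control (1993 bp wide, fold 2.05) and 28.8 after inactivation (725 bp, fold 2.24). The pair 192 kb from the start of Jarid2, inside Dtnbp1, stood at 32.4 and 37.8, and was the 1 pair that ranked higher after inactivation. Near Phf19, a downstream peak at percentile 88.7 after inactivation overlapped a control peak at 96.3 that lay just beyond the 10 kb limit.

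The strongest distal pair of the members lay in intron 3 of Jarid2, 139 kb from its start, at chr13:44964879-44965480 in control and chr13:44964866-44965845 after inactivation. It had a fold of 3.75 and percentile 99.5 in control, and 5.19 and 99.3 after inactivation, above the Jarid2 promoter in both lists. Its sequence, printed because of its letters and chosen after its values were seen, is given for 300 bases at the middle of the control peak on the plus strand.
Jarid2, intron 3, chr13:44965030-44965329: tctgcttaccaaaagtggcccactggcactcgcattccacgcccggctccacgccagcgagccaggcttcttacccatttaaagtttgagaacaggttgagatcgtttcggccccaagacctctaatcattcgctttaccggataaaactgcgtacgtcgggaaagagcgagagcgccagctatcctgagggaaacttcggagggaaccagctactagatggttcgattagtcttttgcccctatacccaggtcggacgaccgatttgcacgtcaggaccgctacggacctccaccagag

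By general knowledge, these letters resemble the gene of the large ribosomal RNA, of which the nucleus holds many copies, but no ribosomal RNA sequence was compared with them here. Of the 277 runs of 24 bases in this window, 214 (77.3%) were found elsewhere in the mm9 assembly, and 166 (59.9%) in the window of its partner after inactivation. The share was 0% to 42.6% in the windows of the other distal peaks and of the highest promoter peak of each member. In those promoter windows the share was at most 8.30% (Suz12), and it was 0% for Mtf2, Ezh1 and Jarid2. The 42.6% was in the inactivated window of the pair downstream of Suz12, and the control window of that pair had 0%. The further promoter peaks of Jarid2 and Phf19 were not searched. At least 28 of the runs were shared with each of 18 other places in the assembly, of which 4 held a peak in control and 3 after inactivation, at percentiles from 74.6 to 100 and from 76.1 to 100. The authors kept reads that mapped to 1 place, and whether reads of ribosomal genes added to the Jarid2 intron peak was not tested. Without this pair, 9 of 12 control peaks (75%) and 6 of 10 after inactivation (60%) had no partner.

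**Figure D5:**
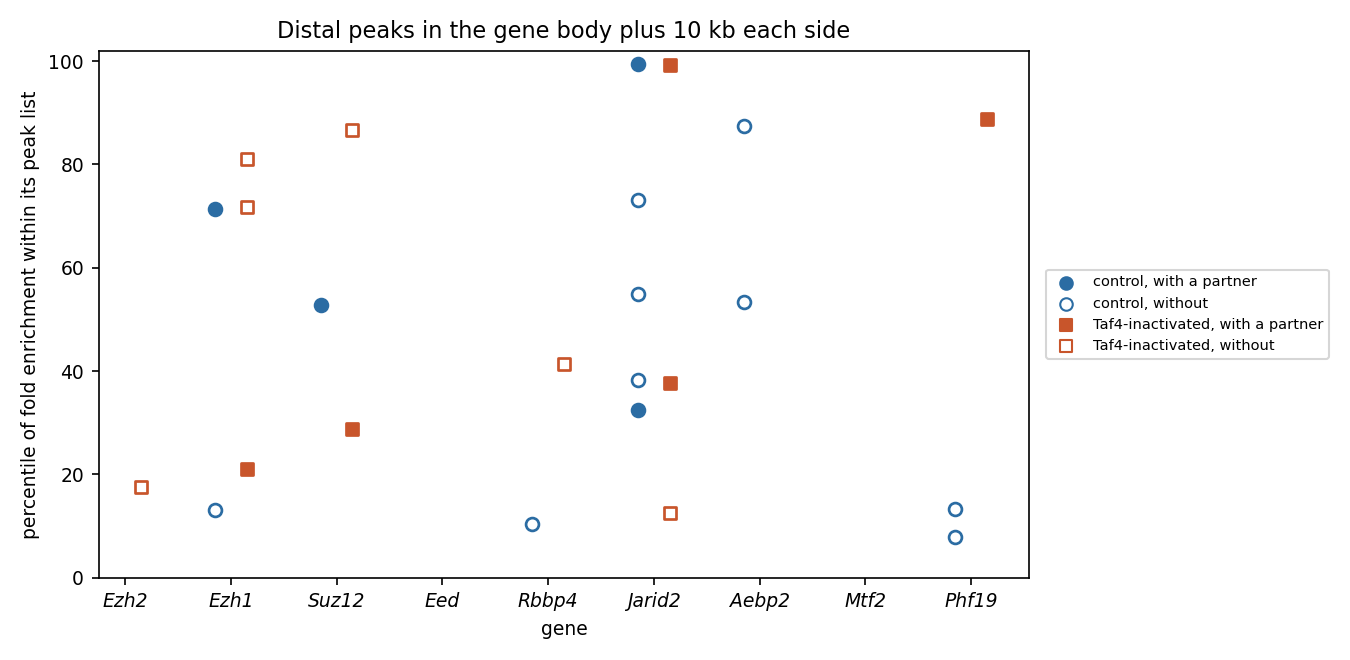
Percentile of fold enrichment of each distal peak within its list, by gene, for control (circles) and Taf4-inactivated enteroids (squares); filled symbols have an overlapping peak in the other list and open ones do not. The 2 filled symbols of Jarid2 at 99.5 and 99.3 are the intron 3 pair, and Eed and Mtf2 have none.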

How the data were processed

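ATAC-seq was made from 1 control and 1 Taf4-inactivated enteroid library, grouped by the genotype label. The authors mapped reads to mm9 with Bowtie 1.0.0, keeping uniquely mapped reads, and ran MACS2 2.1.1 in its broad mode on one library at a time, with reads shifted by 100 bp and extended to 200 bp. Base calls came from bcl2fastq 2.17.1.14, per the submitters' processing notes. The treatment of duplicate and mitochondrial reads is not given in the sources used here. The deposited score is a scaled −log10 q without decimals. Fold, as deposited, is a ratio to the local background, and it and the deposited −log10 p and −log10 q are means over a broad peak. No p-value between genotypes can be had.

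Coordinates were made 1-based. Start sites came from the GENCODE annotation of NCBIM37 (mm9), in which no peak passed a chromosome end. The highest promoter peak of each list stood for a gene, and partners overlapped by at least 1 bp. Depth was inferred from the background that gave both the fold and the p, using the 5th percentile of that level in the narrowest 10%. Peak assignment and depth were tested on simulated data. The depth simulation gave each peak 1 signal value and not a mean over its width, so the depth ratio remains an estimate. Python 3.11.15, numpy 2.4.6, pandas 2.3.3, scipy 1.17.1 and matplotlib 3.10.9 were used. All 9 members, 6 other pathway genes and distal peaks picked by rank were named. The members and lists were chosen with earlier results of these data known. Alternatives changed the q threshold, start site distance and type, ranking value, pairing, region, list length and overlap.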

Additional observations from a re-analysis of the deposited data

How the results depend on the processing

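No paired analysis was possible because each genotype had a single library. Of 92 values recomputed for the summaries of the 9 members, 66 were classed as the same as those reported, and of 81 for single genes 35 were. This class was wide for the shares of distal peaks without a partner. It held control shares from 46.4% to 84.6% beside the reported 69.2%, and inactivated shares from 36.4% to 75% beside 54.5%. The causes of the shifts were not tested. No coding-gene values were at hand for the changed settings below, so shifts of the members cannot be set against those of other promoters. A −log10 q minimum of 5 left 10757 control and 20474 inactivated peaks and so ranked promoters among stronger peaks: 2 members were then in the top 10% of either list, 2 ranked lower after inactivation, 4 were higher by 20 points or more, and the median difference was 5.11. The difference was then 20.4 for Aebp2, 2.01 for Eed, 3.6 for Jarid2, 5.11 for Rbbp4 and 25.1 for Phf19, where 1 distal peak was left in control (0% without a partner) and 4 after inactivation. At a minimum of 2, 5 members were in the control top 10%, the median was −3.81, Phf19 was at 2.19, and 4 and 5 distal peaks were left. Ranking by width gave 3 and 3 members in the top 10%, 2 lower after inactivation and a median of 1.43, with 1.33 for Aebp2, 8.1 for Eed, −4.27 for Ezh1, 1.43 for Ezh2, 12.9 for Phf19 (its wider upstream peak), 1.85 for Rbbp4 and 1.58 for Suz12. Ranking by −log10 p gave 9 and 9 members in the top 10%, a median of −2.08 and 0.514 for Phf19. Ranking among promoter peaks gave a median of −5.53 and 4.58 for Phf19. Start sites of protein-coding transcripts gave 7 and 6 members in the top 10%, a median of −3.25 and 1 member lower by 20 points or more. Distal peaks numbered 5 and 4 (control, inactivated) in gene bodies alone, 28 and 27 with 25 kb each side, and 4 and 5 among the 40000 highest peaks of each list. The pair in Jarid2 was left out as an alternative added after seeing the data. With 1 library each, no spread between cultures was known.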
